A study of Mus musculus with 2 samples.

Results

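High-score cells here are the mouse induced pluripotent stem cells (iPSCs) with the most RNA from 3 simple-epithelial keratin genes (Krt8, Krt18 and Krt19) and 2 reproductive homeobox genes (Rhox6 and Rhox9). The score was the sum of unique molecular identifiers (UMIs, 1 per captured RNA molecule) of these 5 genes over all UMIs of a cell. A gate kept cells with at least 1000 genes, 1 to 10% mitochondrial UMIs and at least 12000 UMIs. Cells were also required to hold at most 2 UMIs over 8 primitive endoderm genes (Gata6, Gata4, Sox17, Pdgfra, Dab2, Cubn, Lrp2 and Amn) and under 5 over 3 fibroblast genes (Col1a2, Col3a1 and Acta2). The 7% of gate cells with the highest score in each library were the members, and the 50% with the lowest score, called low cells, were the comparison. This gave 92 members among 1304 gate cells of 2027 deposited cells. The KO library held 38 members, 269 low cells and 231 cells between them, called middle cells. The WT library held 54 members, 383 low cells and 329 middle cells.

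The study profiled SRF KO iPSCs (SRFΔ/Δ, with the serum response factor gene Srf deleted) beside WT iPSCs (SRFf/f, with floxed alleles), both grown in medium with serum. Each genotype was 1 droplet library of the 10x Genomics platform. No clone, passage or number of cultures is given in the sources used here. With 1 library per genotype no test across cultures could be made, so no p-value is printed, and the cells of a library are not replicates of its genotype. Intervals are at 95%, exact Poisson for ratios of counts and exact binomial for shares. Those of differences between log2 ratios are normal approximations from the counts. All of them cover counting error alone.

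In serum, mouse pluripotent stem cells fluctuate between a naive state, marked by factors such as Klf4, Esrrb and Tbx3, and states closer to differentiation. Krt8 and Krt18 form the intermediate filaments of the first epithelia of the embryo and appear early when embryonic stem cells differentiate. Rhox6 and Rhox9 are X-linked homeobox genes known from placenta and germ cells.

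The score itself is a description, since it chose the members. Members held a median of 3.5 score UMIs in the KO library (2 to 61) and 5 in the WT library (2 to 888). Written as counts per 1e6 UMIs of the cell (CPM), the score just inside the limit was 93.3 in the KO and 124.2 in the WT library, and just outside it was 93.2 and 123.4. The KO cells at these limits held 3 and 2 score UMIs and the WT cells 2 and 4, so the limit was set by very few molecules. Taken at the WT limit, 19 of 538 KO gate cells (3.53%, interval 2.14 to 5.46) and 54 of 766 WT cells (7.05%, interval 5.34 to 9.10) scored above it. No score UMI was found in 329 KO and 367 WT gate cells, so KO low cells were taken from ties in file order. Fibroblast cells outside the gate, which should lack these genes, held a score UMI in 2 of 22 KO cells and 2 of 10 WT cells, with median depths of 26799 and 20188 UMIs. Their summed score was 3.22 CPM in the KO and 16.98 CPM in the WT library.

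Most members carried the keratin part of the score and not the Rhox part. Among KO members 31 held keratin UMIs only, 1 held Rhox UMIs only and 6 held both. Among WT members 30 held keratin UMIs only, 9 Rhox UMIs only and 15 both. Krt8 was found in 26 of 38 KO and 27 of 54 WT members, Krt18 in 22 and 36, and Krt19 in 25 and 26. Rhox6 was found in 4 and 18 members, and Rhox9 in 6 and 17. The name keratin and Rhox-high therefore joins cells that mostly carried only the keratins, and it describes both gene groups in the same cell for a minority of members.

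**Figure D1:**
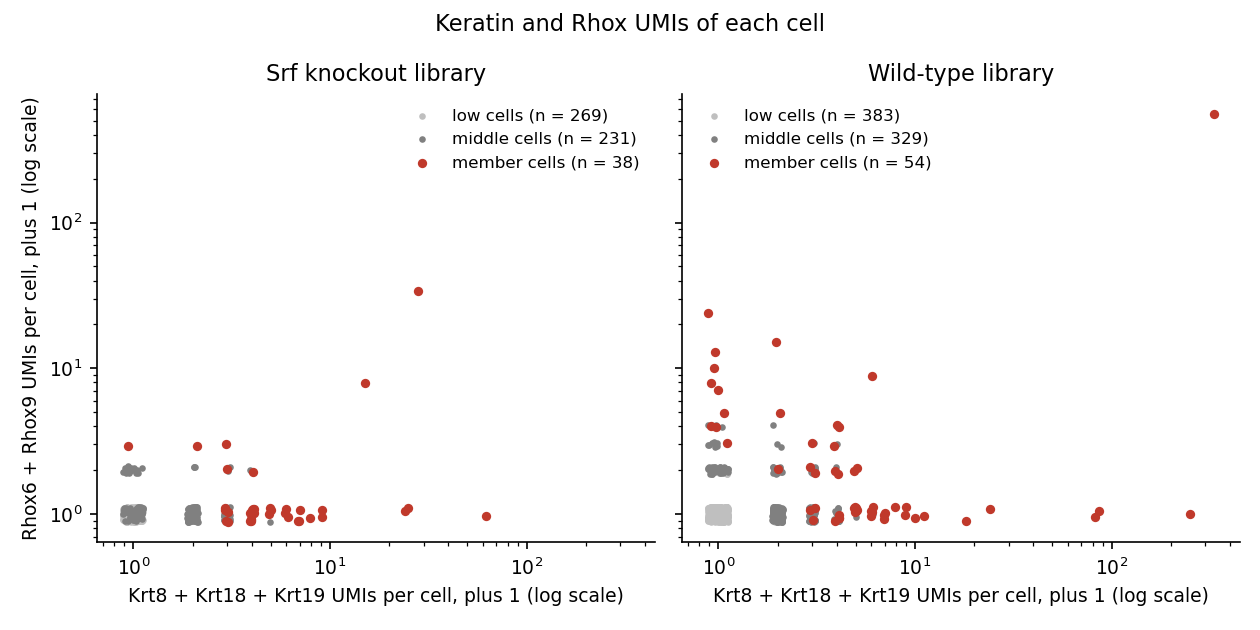
Each point is 1 gate cell of the KO (left) or WT (right) library, with its UMIs of Krt8, Krt18 and Krt19 plus 1 on the x axis and of Rhox6 and Rhox9 plus 1 on the y axis, both on log scales, with points spread slightly to show ties. Most members (red) lie close to 1 of the axes, and 1 WT cell of 888 score UMIs is far from all others.

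Depth and quality were similar but not equal between members and low cells. Median UMIs were 27569.5 in KO members against 24434 in low cells, and 26429.5 in WT members against 27941. After each cell was thinned to 12000 UMIs, members and low cells held medians of 2916 and 2914 genes in the KO and 2846.5 and 2826 in the WT library. The median mitochondrial share was 3.45% in KO members against 4.65% in low cells, and 2.80% against 3.50% in the WT library. No member was called a doublet. The libraries shared 2 cell barcodes, none of them of a member. KO members held 0 Srf UMIs, and low cells 0.29 CPM. In the WT library Srf was 8.07 CPM in members and 8.55 CPM in low cells.

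A few cells held most of the score. The 5 KO and 6 WT members with at least 20 score UMIs, a limit chosen after the data were seen, had 59.8% and 83.6% of all score UMIs of their library's members. The other members held 2 to 8 in the KO library and 2 to 17 in the WT library, with medians of 3 and 5. These 11 cells were not of 1 kind. The highest WT cell held 391 Rhox6, 165 Rhox9 and 210 Krt18 UMIs. It also held 19 UMIs of Krt7 and 11 of Hand1, both known from trophoblast, 90 of the fatty acid-binding protein gene Fabp3, and 0 of the pluripotency factor Pou5f1. The highest KO cell shared part of this with 21 Hand1, 32 Igf2 and 21 Rhox6 UMIs, yet held 16 Pou5f1 UMIs.

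Other cells of this group carried cytoskeletal genes. The second WT cell held 140 Krt8, 29 Krt7 and 80 Car2 UMIs (Car2 encodes a carbonic anhydrase) with 1 of Pou5f1. The third WT cell held 96 UMIs of the mesenchymal filament gene Vim, 50 of the smooth-muscle gene Tagln and 48 of the early-response factor Jun. The fourth held 80 Tagln UMIs. KO cell 3 held 29 Vim and 61 Mest UMIs, with 23 of Krt19 and none of Krt8 or Krt18.

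KO cells 4 and 5 and WT cell 6 kept pluripotency transcripts. The 2 KO cells held 30 and 43 Pou5f1 UMIs and 445 and 388 of Dppa5a, an abundant gene of naive cells. Their depths were 53849 and 50947 UMIs. WT cell 6 held 12 Pou5f1 and 227 Dppa5a UMIs among 23127. KO cell 1, with its 16 Pou5f1 UMIs, held 78 of Dppa5a among 25208. KO cell 4 also held 101 UMIs of the Nodal inhibitor Lefty1, and KO cell 5 held 31 of Rhox5. The 5 KO and 6 WT cells were 0.929% of the KO and 0.783% of the WT gate, so each pattern rests on 1 or a few cells. The counts of the gene groups described next are also given without them.

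**Figure D2:**
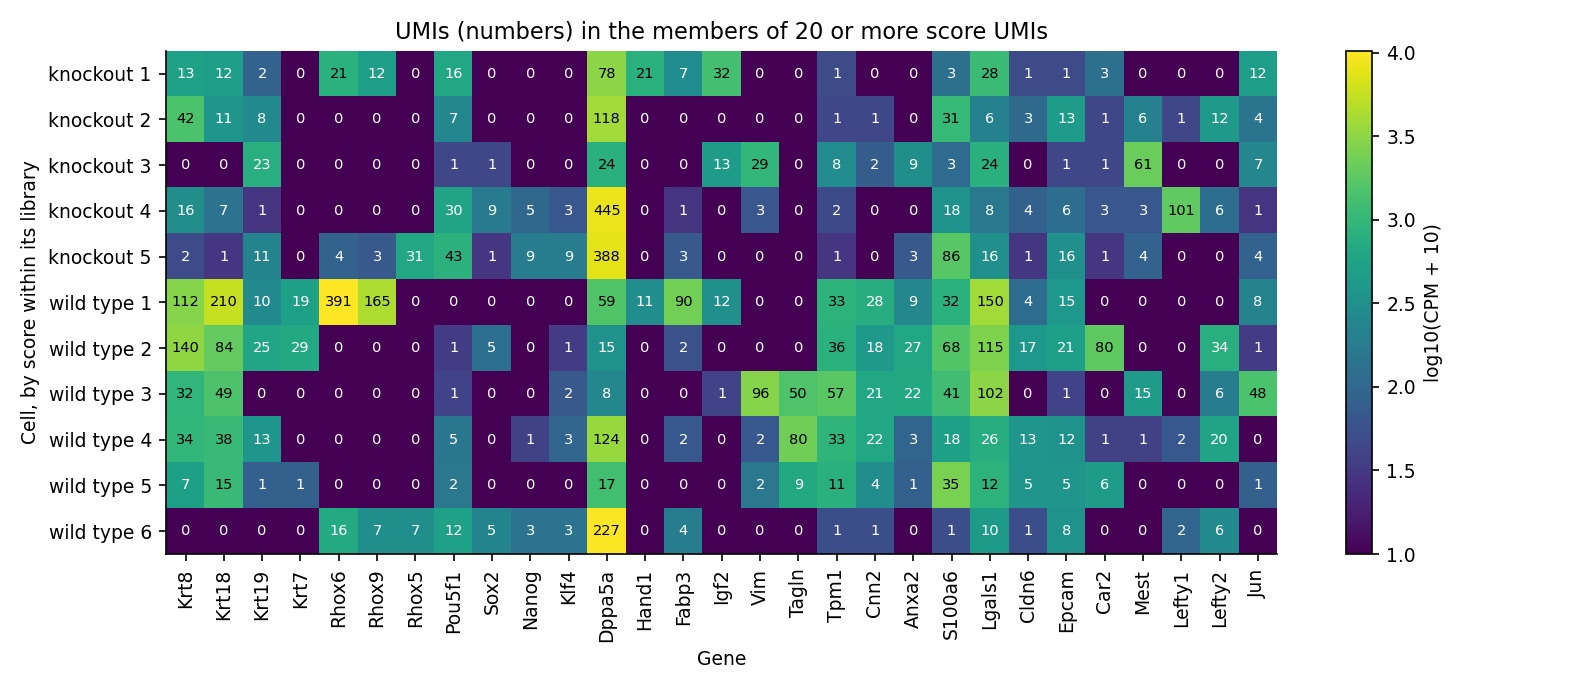
Rows are the 5 KO and 6 WT members with at least 20 score UMIs, columns are genes, numbers are UMIs, and the colour is the level as log10(CPM + 10). No 2 rows show the same set of genes. Hand1 and Fabp3 stand out in WT cell 1, Car2 in WT cell 2, and Vim and Jun in WT cell 3. Dppa5a is high in KO cells 4 and 5 and in WT cell 6, where its level is the highest.

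Genes other than the 5 score genes and the 11 gate genes were then compared between members and low cells within each library. Genes entered when their level averaged 10 CPM or more over the 4 sums (members and low cells of each library), which left 6519. Genes under 10 CPM in the low cells of both libraries, such as Igf2, entered only through their level in members. For such genes the filter itself favoured a higher call, and the counts of higher genes below include them. In the KO library alone 6.4% of the 6519 genes were at least 1.5-fold higher in members and 5.58% lower, with counting intervals that excluded equality. In the WT library alone these shares were 8.15% and 4.36%. In both libraries at once 167 (2.56%) were higher. Another 89 (1.37%) were lower by the same rule. Higher and lower below mean past this rule. Without the 11 cells, 94 genes (1.44%) were higher, 82 of them among the 167, and 60 (0.92%) were lower, 49 of them among the 89. For 12 of the 167 higher genes, 1 cell held over 50% of the members' UMIs in at least 1 library. The median log2 ratio of members over low cells was 0.02 over all genes in the KO and 0.03 in the WT library. With scaling by TMM (trimmed mean of M-values) these medians moved to -0.02 and -0.08, and the counts became 141 higher and 140 lower. The middle cells lay between low cells and members in both libraries for 96 of the 167 higher and 65 of the 89 lower genes.

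**Figure D3:**
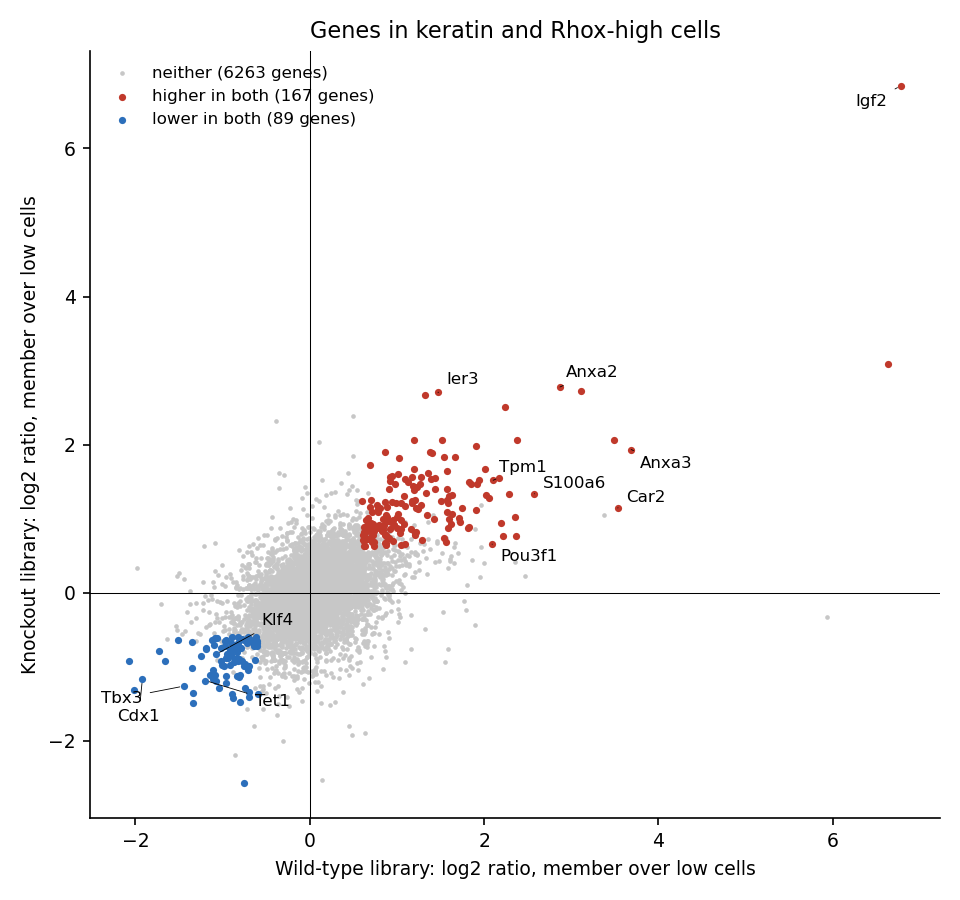
Each point is 1 of the 6519 genes, with its log2 ratio of members over low cells in the WT library (x axis) and in the KO library (y axis). Red genes were higher and blue genes lower in both libraries by the 1.5-fold rule, and the log2 ratio of Igf2 at the top right rests on 2 low-cell UMIs in each library.

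The 12 higher genes averaging at least 50 CPM with the largest ratios in the library where each was smaller were Tpm1, Tubb6, Klf6, Ddit4, S100a6, Clic1, Cldn6, Bnip3, Perp, Car2, Egln3 and Cyba. Tpm1 (ENSMUSG00000032366, chr9:67022590-67049406 on the minus strand of GRCm38), which encodes a tropomyosin of actin filaments, was 28.0 CPM in low, 28.3 in middle and 80.1 in member cells of the KO library. It was 46.3, 55.8 and 199.0 CPM in the WT library. Only members were raised in the KO library, and the log2 ratios over low cells were 1.52 (interval 1.14 to 1.88) and 2.10 (1.89 to 2.31). Ddit4 (ENSMUSG00000020108, on chromosome 10), a stress-induced inhibitor of the mTORC1 kinase, was 92.3, 104.2 and 282.3 CPM in KO low, middle and member cells. It was 97.2, 113.2 and 248.8 CPM in those of the WT library. Its log2 ratios were 1.61 (1.41 to 1.81) and 1.36 (1.18 to 1.53), and it kept them without the 11 cells (1.63 and 1.47). On cells thinned to 12000 UMIs, Ddit4 was found in 30 of 38 KO members against 115 of 269 low cells, and in 39 of 54 WT members against 172 of 383.

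Genes of hypoxia and glycolysis were among the higher ones. Of 18 measured genes of a stress and hypoxia list, 8 were higher and 0 lower (Bnip3, Ddit3, Ero1l, Hmox1, Ndrg1, P4ha1, Pgk1 and Slc2a1), beside 2.56% and 1.37% of all genes. The list's median log2 ratio was 0.75 in the KO and 0.52 in the WT library. Without the 11 cells the medians were 0.74 and 0.55, and 6 genes were higher, beside 1.44% of all genes. Bnip3, which encodes a mitophagy receptor induced in hypoxia, was 48.2, 52.0 and 129.1 CPM in low, middle and member cells of the KO library. In the WT library it was 114.5, 135.5 and 267.6 CPM. The glucose transporter gene Slc2a1 was 171.8, 174.0 and 342.8 CPM in the KO and 164.4, 175.4 and 295.2 CPM in the WT library. In each case the members stood above both other sets of cells. Egln3, an oxygen-sensing hydroxylase outside the list, had log2 ratios of 1.17 and 1.09. P4ha1 and Hmox1 were the 2 genes of the 8 that missed the rule without the 11 cells. Ddit3, the stress factor CHOP, had ratios of 1.14 and 1.22, but other genes of the amino acid response were not past the rule: Asns was at 0.31 and 0.33, Trib3 at 0.66 and 0.31, and Chac1 at 0.59 and -0.18. Pdk1, which holds pyruvate back from mitochondria, had ratios of -0.47 and -0.40.

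Sequence before the start of these genes was searched for ACGTG, a form of the core of the hypoxia-response element, on both strands (CACGT on the other). The form GCGTG was not searched for, so a window without a match can still hold it. The 5 of the 8 higher genes of the list with an entry in the RefSeq promoter table (GRCm38.p6) are shown, because they were higher together. Each run is the 250 bases before the gene's start, 5′ to 3′ on the gene's strand, with matches in capitals. The runs are chr7:138909507-138909756 (minus strand), chr10:127290543-127290792 (plus), chr10:59323046-59323295 (plus), chrX:106186850-106187099 (plus) and chr4:119108495-119108744 (plus).
Bnip3: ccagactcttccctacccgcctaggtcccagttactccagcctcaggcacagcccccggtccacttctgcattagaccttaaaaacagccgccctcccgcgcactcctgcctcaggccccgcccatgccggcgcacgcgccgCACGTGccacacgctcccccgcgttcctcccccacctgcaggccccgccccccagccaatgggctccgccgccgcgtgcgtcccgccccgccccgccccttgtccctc
Ddit3: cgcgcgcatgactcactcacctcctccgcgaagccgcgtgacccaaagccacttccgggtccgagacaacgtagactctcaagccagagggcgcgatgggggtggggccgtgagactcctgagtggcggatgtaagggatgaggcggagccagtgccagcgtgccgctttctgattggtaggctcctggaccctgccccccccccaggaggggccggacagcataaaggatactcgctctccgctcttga
P4ha1: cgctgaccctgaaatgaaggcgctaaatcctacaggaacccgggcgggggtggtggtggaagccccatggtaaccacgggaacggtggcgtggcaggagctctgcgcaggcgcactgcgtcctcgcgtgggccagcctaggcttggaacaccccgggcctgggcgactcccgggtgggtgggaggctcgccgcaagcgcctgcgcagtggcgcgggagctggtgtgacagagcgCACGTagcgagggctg
Pgk1: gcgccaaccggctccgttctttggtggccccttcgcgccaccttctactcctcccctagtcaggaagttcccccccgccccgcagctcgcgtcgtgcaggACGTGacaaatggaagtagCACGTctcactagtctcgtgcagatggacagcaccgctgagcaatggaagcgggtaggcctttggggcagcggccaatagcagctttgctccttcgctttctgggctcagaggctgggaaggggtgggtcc
Slc2a1: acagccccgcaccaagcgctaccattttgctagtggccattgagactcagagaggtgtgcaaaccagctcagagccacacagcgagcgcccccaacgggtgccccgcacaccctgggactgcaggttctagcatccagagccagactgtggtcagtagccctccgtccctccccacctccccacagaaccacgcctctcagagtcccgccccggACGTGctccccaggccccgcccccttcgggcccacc
Bnip3 held 2 overlapping matches that together form CACGTG, which is also an E-box, Pgk1 held 2 separate ones, P4ha1 and Slc2a1 held 1 each and Ddit3 held none. ACGTG occurred in 4 of these 5 windows, in 16.6% of all 32851 windows of the table and in 23.5% of the 6445 windows of the measured genes. Among windows of the 167 higher genes it occurred in 21.8% (37 of 170). Among windows of all measured genes of the stress and hypoxia list it occurred in 41.2% (7 of 17). Asns, Ldha and Nupr1 held it there and were not among the 8 higher genes. A match is a description of the letters in the window and not evidence of a bound factor.

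Epithelial junction genes were a further group. Of 22 measured genes of adhesion and junctions, 9 were higher and 0 lower, beside 2.56% and 1.37% of all genes. The medians were 0.40 in the KO and 0.79 in the WT library. Without the 11 cells 5 were higher, beside 1.44% of all genes, and the medians were 0.22 and 0.45. The claudins, which seal tight junctions, were higher: Cldn6 had log2 ratios of 1.26 and 1.57, Cldn7 1.30 and 1.60, Cldn3 1.47 and 1.85, and Cldn4 0.65 and 0.87. In the 50% of gate cells lowest in keratins alone, Cldn3 was 6.38 CPM (KO) and 9.77 CPM (WT), below the filter's 10 CPM. Cldn6 was 23.6 CPM in low, 27.6 in middle and 56.1 in member cells of the KO library, and 31.0, 38.6 and 92.1 CPM in the WT library. Perp, a desmosome gene induced by p53, had ratios of 1.21 and 1.58. The membrane protease genes Prss8 (1.34 and 2.28) and St14 (0.96 and 0.93) were also higher. Of the 9, Cldn3, Cldn4, Pkp2 and St14 missed the rule without the 11 cells. The classical epithelial genes moved less, with Cdh1 at -0.06 and -0.30 and Epcam at 0.44 and 0.47. None of the 5 measured other keratins and plakins was past the rule. Krt7 was 0.89 CPM in KO and 39.0 CPM in WT members, and 1 WT cell held 50% of the latter.

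Some genes of calcium-binding membrane proteins, and a few of the actin cytoskeleton, were higher in members. Of 13 annexin, S100 and galectin genes, 6 were higher and 0 lower, beside 2.56% and 1.37% of all genes, with medians of 0.77 and 1.77. Without the 11 cells 2 genes were higher, beside 1.44% of all genes, and the medians were 0.29 and 0.91. Anxa2, an annexin that links membranes to actin, was 7.91, 10.3 and 54.3 CPM in low, middle and member cells of the KO library and 12.9, 17.1 and 94.1 CPM in the WT library. Its log2 ratios of 2.78 and 2.87 became 2.73 and 2.22 without the 11 cells. S100a6, a calcium-binding protein gene, had ratios of 1.34 and 2.58, and 1.10 and 1.84 without them. Anxa3, Anxa5, Lgals1 and S100a11 were the 4 that missed the rule then. Of 34 actin cytoskeleton genes, 5 were higher (Tpm1, Tpm2, Tpm4, Capg and Tagln2) and 0 lower. Without the 11 cells 2 were higher (Tpm1 and Capg), beside the same 1.44% of all genes. The medians of this list were 0.21 and 0.46, and 0.10 and 0.17 without the 11 cells. Its summed level was 8271 CPM in KO members against 8579 CPM in low cells, and 12015 against 9846 CPM in the WT library. Actb was at 0.23 and 0.17 and Actg1 at 0.49 and 0.47. Reads that the near-identical Actb and Actg1 share were counted by a rule not given in the sources used here.

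Marker lists of other cell types differed between the sets of cells, and their part in the ratios of other genes was not tested. The summed feeder fibroblast list was 22.3 CPM in KO members against 37.1 CPM in low cells. For WT cells it was 125.1 against 10.4 CPM, and 17.7 CPM in members without the 11 cells. Tagln, which fibroblasts also express, was 1.78 CPM in KO members and 100.2 CPM in WT members, and 1 WT cell held 53.7% of the latter. Its log2 ratios were -0.33 and 5.93, and the WT ratio was 2.30 without the 11 cells. Members held 4 fibroblast gate UMIs in each library. They held 12 endoderm gate UMIs in the KO and 16 in the WT library, under the gate's own limit. Of 22 primitive endoderm genes only Lamb1, Serpinh1 and Sparc were outside the gate and measured, and Serpinh1, a collagen chaperone gene, was higher (0.68 and 1.57), though not without the 11 cells. Sparc was at 0.22 and 1.17 and Lamb1 at -0.25 and 0.25. The summed primitive endoderm list was 245.8 CPM in KO members against 194.2 CPM in low cells and 340.9 against 138.3 CPM in the WT library, and 198.1 and 238.4 CPM in members without the 11 cells. None of 14 mesoderm genes and 1 of 12 neuroectoderm genes (Tubb3, 0.68 and 0.32) reached 10 CPM. In the mesenchymal list 0 of 4 were past the rule, and the ratios of Vim, 0.30 and 0.97, became -0.36 and -0.27 without the 11 cells.

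**Figure D4:**
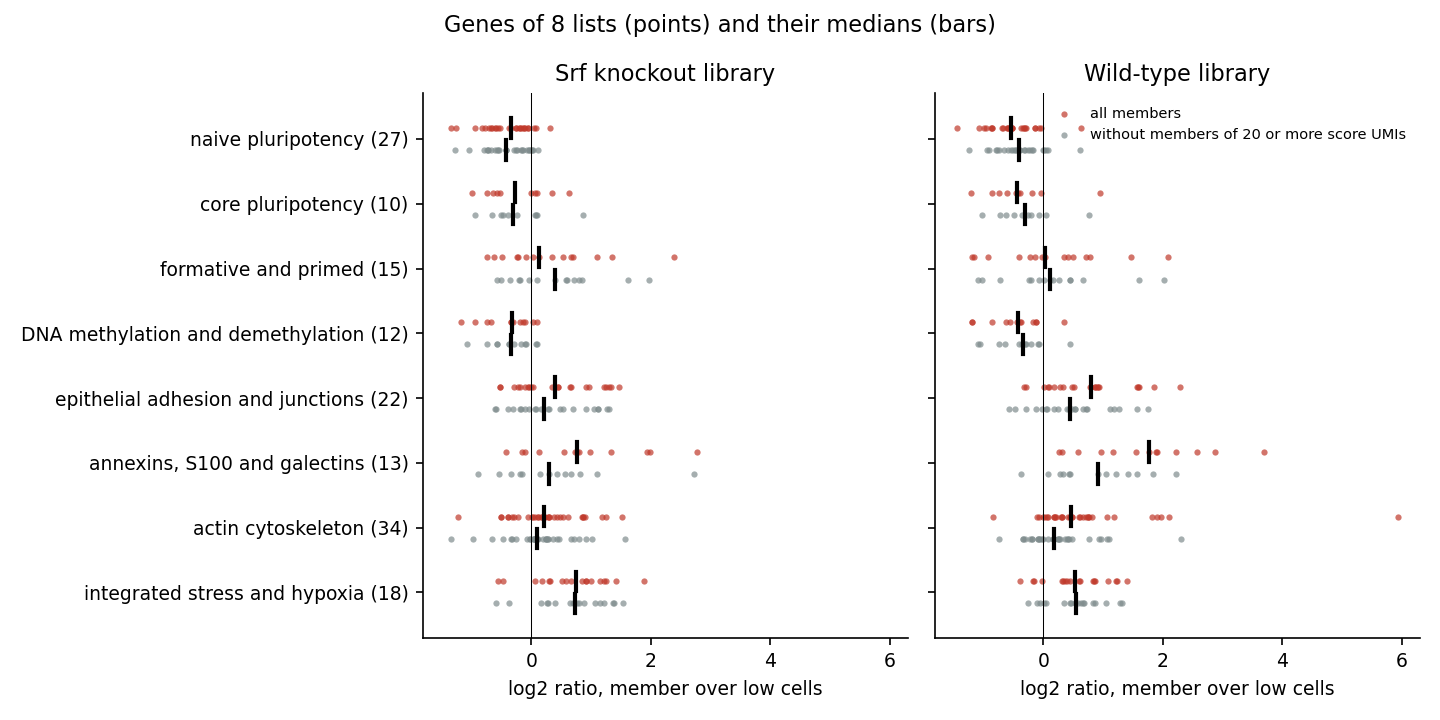
Points are the measured genes of 8 lists (numbers in brackets), with their log2 ratio of members over low cells on the x axis in the KO (left) and WT (right) library, for all members (red) and without the 11 members of at least 20 score UMIs (grey). Black bars are medians: the stress and hypoxia medians of 0.75 and 0.52 stay at 0.74 and 0.55 in the grey points, while the annexin, S100 and galectin medians of 0.77 and 1.77 drop to 0.29 and 0.91.

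Early-response and signalling genes formed smaller groups. Over all genes 2.56% were higher and 1.37% lower. Of 14 immediate early and YAP target genes 4 were higher: Ier3 (2.71 and 1.47), Jun (2.06 and 1.52), Atf3 (1.46 and 1.92) and Cyr61 (1.32 and 1.63, missed without the 11 cells). Egr1 and Fos, known targets of SRF, had ratios of 2.33 and 1.24 in the KO and -0.39 and 0.10 in the WT library. Among 11 genes of BMP and TGF-beta signalling, the BMP target Id1 was higher (0.71 and 1.28), and the ligand Bmp4 was lower (-1.35 and -1.34). Bmp4 was 48.9 CPM in low, 47.0 in middle and 18.7 in member cells of the KO library, and 24.7, 21.6 and 9.41 CPM in the WT library. Among 10 genes of ERK feedback, the inhibitors Spry4 (-1.47 and -0.80) and Spry2 (-0.62 and -0.77) were lower and Phlda1 was higher, at 29.0 CPM in low and 68.6 CPM in member cells of the KO library and 13.3 and 37.7 CPM in the WT library. Of 4 measured Wnt targets, Cdx1 was lower (-1.17 and -1.92). Id1, Spry2 and Spry4 missed the rule without the 11 cells, and Lefty1 passed it.

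Genes of the formative and primed states did not move as a group. Of 15 measured, Sox4 (1.09 and 0.78) and Pou3f1 (0.66 and 2.09) were higher and Dnmt3a (-0.74 and -1.20) lower, and without the 11 cells Pou3f1 was and Sox4 and Dnmt3a were not past the rule. Fgf5, the usual marker of primed cells, was 0 CPM in KO members and 2.69 CPM in WT members, or 4 UMIs. Otx2 was at 1.35 and -0.03, and Dnmt3b at 0.03 and 0.35. Of 6 trophectoderm genes Tfap2c (0.88 and 0.79) and Peg10 (0.68 and 0.73) were higher, beside 2.56% of all genes. Neither of them was without the 11 cells, and Cdx2 was 0.89 and 4.03 CPM in members. Rhox5, the only other measured member of its family, had ratios of 2.67 and 1.32, with 93.9% of the KO members' UMIs in 1 cell, and -0.80 and 1.44 without the 11 cells. Of 12 imprinted genes, Igf2, Mest and Peg10 were higher, beside the same 2.56% of all genes, and none was without the 11 cells. Igf2 had 46 UMIs in KO and 38 in WT members against 2 in each set of low cells, giving log2 ratios of 6.85 (5.22 to 10.24) and 6.78 (5.14 to 10.18). A single cell held 69.6% and 60.5% of these member UMIs.

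Several factors of the naive state were lower. Of 27 measured naive genes 0 were higher and 6 lower (Klf4, Tbx3, Esrrb, Mybl2, Tet2 and Jam2), beside 1.37% of all genes. The median log2 ratio was -0.34 in the KO and -0.55 in the WT library, and -0.42 and -0.41 without the 11 cells. Ratios were below 0 in both libraries for 23 of the 27, against 29.9% of all genes. The KO members differed from low cells in chromosome 8 share, and when only KO cells of raised share were compared, Klf4, Tbx3, Mybl2 and Tet2 missed the rule, with a KO ratio of -0.37 for Klf4. Klf4 (ENSMUSG00000003032, on chromosome 4) was 258.8, 252.4 and 145.2 CPM in low, middle and member cells of the KO library. In the WT library it was 335.1, 315.6 and 158.7 CPM. The middle cells stayed close to the low cells, and members were lower by log2 ratios of -0.83 (-1.07 to -0.60) and -1.08 (-1.27 to -0.89). Tbx3 had ratios of -1.26 and -1.44, Esrrb -1.34 and -0.70, and Tfcp2l1 -0.52 and -0.99. Esrrb and Jam2 missed the rule without the 11 cells, and Tfcp2l1 passed it. Nanog was at -0.61 and -0.55, short of the log2 limit of 0.58 in the WT library. Zfp42, a common marker of naive cells, was at 0.07 and -0.14, and Dppa5a at -0.05 and -0.53.

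Core pluripotency genes were mostly not past the rule. Of 10 core genes Sox2 alone was lower (-0.64 and -0.75), and none was without the 11 cells. It was 230.5, 223.3 and 147.8 CPM in KO low, middle and member cells and 210.7, 201.2 and 125.1 CPM in WT ones. Pou5f1 was 717.8 CPM in low and 711.5 CPM in member cells of the KO library and 829.1 and 616.6 CPM in the WT library, with ratios of -0.01 and -0.43. By single cells, median Pou5f1 was 697.1 CPM in members and 677.7 CPM in low cells of the KO library, and 683.7 and 795.7 CPM in the WT library. The ranges overlapped widely. The summed naive list ranged from 1696 to 28059 CPM over KO members (median 9925) and from 3965 to 28803 over low cells (median 10474). In the WT library it ranged from 946 to 22551 CPM in members (median 11707) and from 2661 to 30641 in low cells (median 14454). The 6 WT members of at least 20 score UMIs had a median of 2121 CPM, and the other 48 a median of 11843. Median Pou5f1 was 85.8 CPM in these 6 WT members and 557.1 CPM in the 5 KO ones. In the WT library the 10th percentile of Dppa5a was 1088 CPM over the other 48 members and 6281 CPM over low cells. In the KO library it was 3990 CPM over the other 33 members and 3781 CPM over low cells. Leaving the naive state thus describes the lower levels of certain factors and of some members. In the summed counts Pou5f1, Zfp42 and Dppa5a were not lower past the rule.

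Of 12 measured genes of DNA methylation and demethylation, Tet1, Tet2 and Dnmt3a were lower, 0 were higher and 9 were not past the rule, beside 1.37% of all genes lower. Without the 11 cells Tet1 and Tet2 were lower, beside 0.92% of all genes. Tet1, which oxidises 5-methylcytosine, was 150.7, 137.3 and 65.9 CPM in low, middle and member cells of the KO library and 125.8, 109.3 and 54.5 CPM in the WT library. Its log2 ratios were -1.18 (-1.55 to -0.85) and -1.20 (-1.55 to -0.88), and -1.08 and -1.06 without the 11 cells. The 12 lower genes with the largest ratios by the same ranking as above were Gm13075, Tet1, RP23-4H17.3, Klf4, Zfp553, Phc1, Slc29a1, Aes, Mybl2, Enah, Dnmt3a and Plk4. Phc1, a Polycomb subunit, had ratios of -0.88 and -0.83, and the Groucho-related co-repressor gene Aes -0.80 and -0.84. Gm13075 (-1.49 and -1.34) is annotated as antisense, and how strand was used in counting is not given in the sources used here.

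Proliferation genes differed little. Of 24 S-phase and 26 G2/M genes 0 were past the rule, beside 2.56% higher and 1.37% lower of all genes. The medians were -0.12 and -0.17 for the first list and 0.11 and -0.13 for the second. By phase calls on thinned cells, 5 of 54 WT members were in G1 (9.26%, interval 3.08 to 20.3) against 5 of 383 low cells (1.31%, 0.425 to 3.02), and 1 of 38 KO members against 5 of 269 low cells. In 19 genes of p53 and apoptosis, Perp and Btg2 were higher, beside 2.56% of all genes. The autophagy receptor gene Sqstm1 was the only higher gene of 20 in the lysosome and lipid list (1.26 and 0.70). In a list of 16 genes of epithelial polarity and transport, Slc2a1 was higher and the laminin gene Lamc1 lower (-0.88 and -0.94). Of 3 measured two-cell and germline genes 0 were past the rule, and the only measured blood gene, Laptm5, was lower (-1.40 and -0.70).

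Because keratins and Rhox genes mostly marked different cells, each was also used alone. The top 7% by keratins and the top 7% by Rhox6 and Rhox9 shared 3 KO cells, 7.89% of the 38 keratin-chosen and 9.68% of the 31 Rhox-chosen ones, and 5 of 54 WT cells (9.26%). In the keratin-chosen cells the summed Rhox6 and Rhox9 level was 37.1 CPM against 2.27 CPM in cells low in keratins in the KO library, and 385.9 against 12.05 CPM in the WT library. Of these 41 KO and 564 WT Rhox UMIs, 1 and 8 lay in keratin-chosen cells with under 20 score UMIs. These values describe the choice of cells, since both gene groups and the limit of 20 come from the score.

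The keratin-chosen cells overlapped the members most, so their genes are not independent of those above. With keratins alone 163 genes (2.5%) were higher and 88 (1.35%) lower, 132 and 55 of them among the 167 and 89 of the members. Without cells of at least 20 score UMIs these counts were 100 (1.53%) and 54 (0.828%). The naive list had 7 lower and 0 higher genes of 27, and the stress and hypoxia list 8 higher and 0 lower of 18. Without the cells of at least 20 score UMIs the naive list had 6 lower genes and the stress and hypoxia list 8 higher. The other lists lost more: annexins, S100 and galectins went from 7 higher genes to 1, the actin list from 7 to 1, and junctions from 6 to 3. Lefty1, which encodes a Nodal inhibitor, was higher in them (2.01 and 1.35). Dppa3, a naive and germ-cell gene, was lower (-0.77 and -0.93), and so was the interferon-inducible membrane gene Ifitm1 (-0.74 and -0.73).

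The Rhox-chosen cells, 31 in the KO library and 54 in the WT library with at least 1 Rhox6 or Rhox9 UMI, showed a smaller and different set. The 31 were all KO gate cells with such a UMI, so 1 UMI was enough to be chosen there. Keratin-chosen cells held at least 2 keratin UMIs in each library. The part of this in the size of the set was not tested. In the Rhox-chosen cells 33 genes (0.506%) were higher and 19 (0.291%) lower. Dppa3 was higher (1.01 and 1.68), as were Ifitm1 (1.55 and 0.98), the creatine kinase gene Ckb (2.02 and 1.34), Id3 (1.27 and 0.89), Tfap2c (1.52 and 1.51) and the family member Rhox5 (3.60 and 1.75). All of these kept their direction and passed the rule without the cells of at least 20 score UMIs. In contrast Ddit4 was at 0.10 and 0.11 and Egln3 at -0.62 and -0.12. The naive list had 2 higher and 0 lower genes, with medians of 0.03 and -0.13. Klf4 was at -0.53 and -0.69, short of the rule in the KO library, beside -0.71 and -0.61 in the keratin-chosen cells. In the Rhox-chosen cells the stress and hypoxia list had 0 higher and 1 lower. Of the 163 genes higher in keratin-chosen and the 33 higher in Rhox-chosen cells, 5 were common (S100a6, Cldn3, Capg, Ldhb and Igf2), or 3.07% of the first and 15.2% of the second list. Without cells of at least 20 score UMIs no gene was higher in both choices. Dppa3 and Ifitm1 thus differed in sign between the choices in both libraries, and their intervals did not overlap. Against all cells with 0 UMIs of the chosen genes, in place of ties taken in file order, the counts were 173 higher and 85 lower for keratins and 35 higher and 19 lower for Rhox genes. For the Rhox-chosen cells the KO naive median then moved from 0.03 to -0.05, and Klf4 passed the rule as lower (-0.62 and -0.63), so that 2 naive genes were higher and 1 lower.

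**Figure D5:**
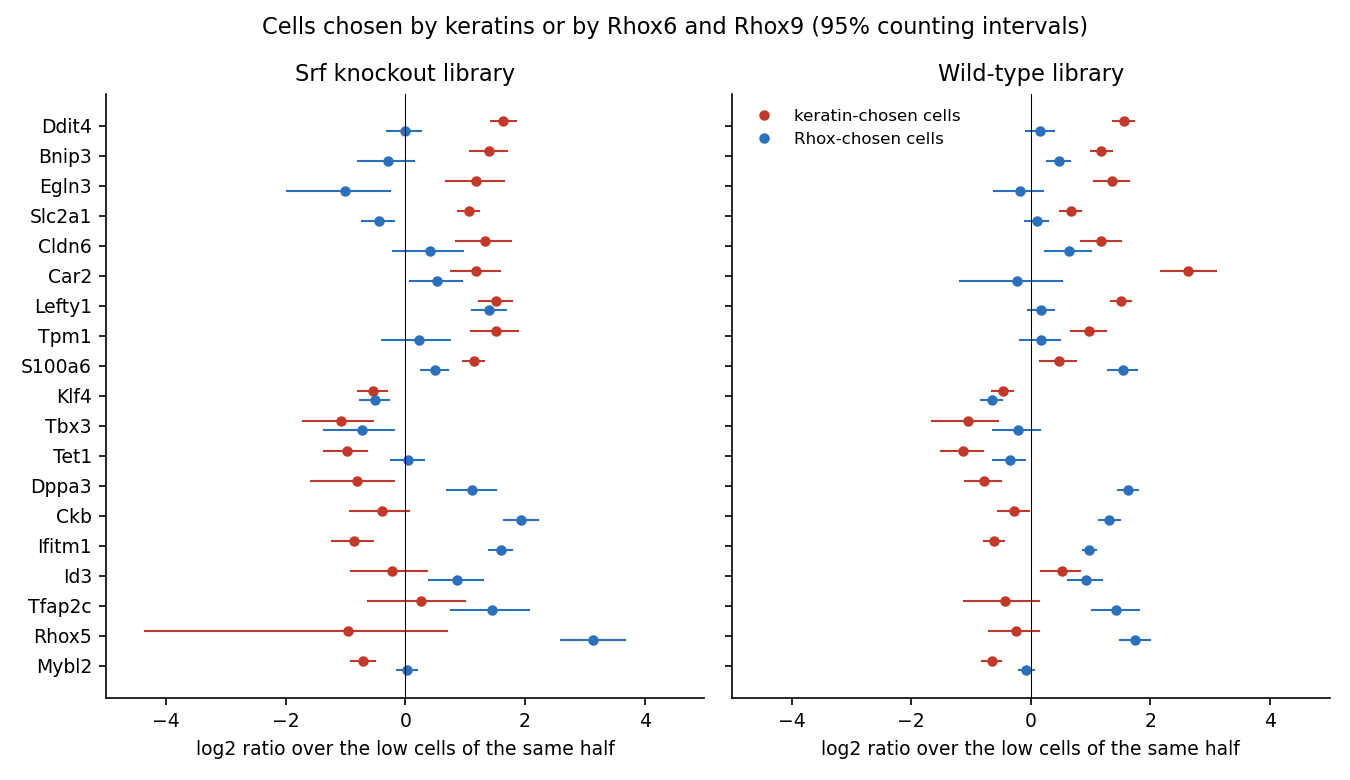
Points are log2 ratios of cells chosen by keratins (red) or by Rhox6 and Rhox9 (blue) over the cells lowest for the same genes, without cells of at least 20 score UMIs, and lines are 95% counting intervals, in the KO (left) and WT (right) library. Ddit4, Egln3 and Cldn6 lie further right in red, and Dppa3, Ckb, Ifitm1, Tfap2c and Rhox5 lie further right in blue, with the red Tfap2c point of the KO library at 0.27.

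Chromosome 8 moved with membership in the KO library. A cell was counted as raised when the share of its UMIs from chromosome 8 was over 1.2 times the WT median. Raised cells were 29 of 38 KO members (76.3%, interval 59.8 to 88.6), 116 of 231 middle cells (50.2%, 43.6 to 56.8) and 120 of 269 low cells (44.6%, 38.6 to 50.8). In the WT library they were 4 of 54 members (7.41%, 2.06 to 17.9) and 41 of 383 low cells (10.7%, 7.79 to 14.2). The separate choices also differed in this share. Raised cells were 78.9% of keratin-chosen and 58.1% of Rhox-chosen cells in the KO library, and 1.85% and 9.26% in the WT library. The 390 measured genes of chromosome 8 had a median log2 ratio of 0.22 in the KO library, where the medians of the 19 other chromosomes lay between -0.04 and 0.10, and of 0.04 in the WT library. On it 16 genes were higher and 1 lower, together 4.36% of its 390 genes, beside 2.56% higher and 1.37% lower of all genes. This share lay within that of other chromosomes, from 1.27% on chromosome 19 to 6.54% on chromosome 3.

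With raised cells left out before members were chosen again, 96 genes were higher and 69 lower, 59 and 39 of them as before. The median of the stress and hypoxia list in the KO library was then 0.35. When only raised KO cells of the original members and low cells were compared, 142 genes were higher and 42 lower. Of the naive and core genes, Klf4, Tbx3, Mybl2, Tet2 and Sox2 were then no longer past the rule, with KO log2 ratios of -0.37, -0.42, -0.56, -0.65 and -0.37. Beyond these values the part of chromosome 8 in the results was not tested.

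Set side by side, the libraries agreed in sign for every named gene past the rule, since the rule requires it, but not in size. For 15 of the 63 named genes past the rule the counting interval of the difference between the log2 ratios excluded 0. Car2 was 31.9 CPM in low and 70.4 CPM in member cells of the KO library and 8.93 and 103.5 CPM in the WT library. A single cell held 36.7% and 52.0% of the members' UMIs. Its ratio was lower by 2.39 in the KO library (difference -2.39, interval -2.91 to -1.86). The differences were -1.43 for Pou3f1 and -1.24 for S100a6, and Ier3 had the larger ratio in the KO library by 1.23. These intervals cover the counts of 1 library each and not the spread between cultures.

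Genes outside the lists followed the score only weakly from cell to cell. Over all gate cells, thinned, the genes outside the lists with the highest Spearman correlation with the score were Eno1, Clic1, Ddit4, Crip2 and Tubb5. Their rho lay between 0.113 and 0.165 over 538 KO and 766 WT cells. In sparse counts of cells from the same library correlations this weak are no finding.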

How the data were processed

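RNA of single cells was measured in 1 SRF KO and 1 WT library of mouse iPSCs, so no replicate pairs or tests exist. The deposited matrices hold UMI counts per gene and cell, which the file format and whole values show. The submitters' processing notes name Cell Ranger 2.0.0, Seurat 3.1.1 and mm10, with roles not given in the sources used here. The KO library held 22277996 UMIs in 1073 cells (median 20605) and the WT library 24005849 in 954 (median 25907). Counts were summed over members, middle cells and low cells. Log2 ratios were taken after adding 0.5 counts and dividing by all UMIs, with no count model. A gene was called at 1.5-fold or more in the same direction in both libraries with counting intervals excluding equality. Phases, correlations and the shares of cells with Ddit4 used cells thinned to 12000 UMIs. Counts of cells with UMIs of the score genes used all UMIs. Doublets were scored with Scrublet at an assumed 0.8% per 1000 cells and were not removed.

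The members, the 28 gene lists and the score were chosen with earlier results of these data known. Genes were named by a rule: fixed pluripotency, epithelial and actin genes, the 12 highest and 12 lowest ratios among genes of at least 50 CPM, up to 4 per list, and the 5 most like the score. Asns, Chac1, Trib3, Pdk1, Egr1, Fos, Lefty1, Lamb1, Jam2, Hand1, Fabp3, the rest of a list's called genes, and Dppa3, Ifitm1, Ckb, Id3 and Ldhb in the separate keratin and Rhox choices were named after their values were seen. Of 27998 genes 27645 (98.7%) matched GENCODE M21, used for chromosomes and coordinates of GRCm38. One gene of the BMP list is not reported here. Alternatives covered the choice of members and low cells, the score genes, scaling, filters, fold limits, quality limits, doublets and chromosome 8. The fold rule was tested on simulated data. Software was Python 3.11.15, numpy 2.4.6, scipy 1.17.1, pandas 2.3.3, scanpy 1.11.5 and matplotlib 3.10.9.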

Additional observations from a re-analysis of the deposited data

Results flagged for a closer look

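Cells outside the gate also held high keratin or Rhox counts, a signal in cells that the comparisons do not use. In the KO library 2 of 459 such cells had at least 20 score UMIs, with a highest value of 77. One of them exceeded the limit on primitive endoderm UMIs and the other had too low a mitochondrial share. In the WT library 2 of 153 such cells had at least 20 score UMIs, with a highest value of 186. One had too low a mitochondrial share and the other fewer UMIs than the gate requires. None of these cells was set aside as a fibroblast cell.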

How the results depend on the processing

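No paired analysis was possible because the series holds 1 KO and 1 WT library. The result depended most on which score genes chose the members. By Rhox6 and Rhox9 alone, filled up in the KO library with cells of 0 UMIs, 30 genes were higher and 13 lower, and 7 and 4 of these were among those reported. The naive medians were then 0.041 (KO) and -0.14 (WT), those of annexins, S100 and galectins 0.11 and 0.56, and those of stress and hypoxia -0.18 and -0.034. Of the 63 named genes past the rule 27 changed sign in at least 1 library. Ratios of genes otherwise higher were -0.045 for Tubb6, -0.025 for Ddit4, -0.19 for Clic1, -0.18 for Bnip3, -0.97 for Car2, -0.63 for Egln3, -0.33 for Sox4, -0.20 for Pou3f1, -0.81 for Anxa2, -1.25 for Anxa3, -0.70 for Anxa5, -0.81 for Tpm4, -0.79 for Atf3, -0.79 for Id1, -0.23 for Ndrg1, -0.30 for Ddit3, -0.11 for P4ha1, -0.52 for Mest, -0.19 for Slc2a1 and -0.29 for Serpinh1. Ratios of genes otherwise lower were 0.052 for Tet1, 0.42 for Slc29a1, 0.034 for Mybl2, 0.42 for Plk4, 0.018 for Tet2, 0.45 for Spry2 and 0.21 for Bmp4. By keratins alone 165 genes were higher and 88 lower, the WT annexin median was 1.35, and Tfap2c (-0.46) and Rhox5 (-0.44) changed sign.

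The count of lower genes was 52 with the top 10% as members, 52 with the score taken on thinned cells, 140 with TMM and 137 with median-of-ratios scaling. At a mean of at least 50 CPM, 46 genes were higher and 27 lower, and the WT junction median was 0.32. A 2-fold limit gave 71 higher and 13 lower genes, and a limit below 1.5-fold gave 310 and 198, by construction. The WT annexin median was 1.32 with the top 10%, 1.36 with each cell weighted alike and 0.91 without members of at least 20 score UMIs, where 94 genes were higher and Peg10 (-0.32) and Rhox5 (-0.80) changed sign. Requiring 0 endoderm UMIs gave 110 higher genes and Tpm4 at -0.23. Leaving out cells of raised chromosome 8 share gave 96 higher genes, a KO stress median of 0.35, and RP23-4H17.3 (0.084), Rhox5 (-0.17) and P4ha1 (-0.22) with changed sign. Comparing only raised KO cells gave 42 lower genes. The last choice, the limit of 20 score UMIs and the comparison with all cells of 0 UMIs were added after seeing the data. The cause of these changes was not tested. Under the remaining alternatives the counts stayed within 1.5 times those reported. With 38 and 54 members of few score UMIs each, genes under 10 CPM were not compared.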
